A study of Mus musculus with 44 samples.

Results

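The subject is 10 genes of the inhibin, activin, follistatin and anti-Müllerian hormone (AMH) system in mouse ovarian follicles treated with perfluorononanoic acid (PFNA), one of the long-chain fluorinated surfactants known as PFAS: Inha, Inhba, Inhbb, Fst, Fstl3, Amh, Amhr2, Acvr1b, Acvr2a and Acvr2b. They were chosen by symbol. All 10 were found in both expression tables, among 22674 genes in the maturation table and 18274 in the ovulation table, and all 10 passed the filters on low values.

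Inhibin and activin are built from shared subunits. The alpha subunit (Inha) joined to a beta subunit (Inhba or Inhbb) gives inhibin, which restrains pituitary release of follicle-stimulating hormone, and a pair of beta subunits gives activin, which promotes it. Activin signals through type II receptors (Acvr2a, Acvr2b) and the type I receptor Acvr1b to SMAD2 and SMAD3, and follistatin (Fst) and the follistatin-like protein Fstl3 bind activin and keep it from its receptors. AMH, made by granulosa cells of small growing follicles, acts through its own type II receptor Amhr2 and the BMP-type SMAD proteins. The surge of luteinizing hormone, for which hCG (human chorionic gonadotropin) stands in, is known to change this set of genes in granulosa cells as a follicle moves towards ovulation.

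All 44 libraries came from ovarian follicles of wild-type CD-1 mice, an outbred stock. In the maturation window 11 control libraries received the solvent DMSO and 10 received PFNA, and in the ovulation window 12 control libraries received hCG and 11 received hCG with PFNA. The dose of PFNA, the hours of exposure and the age of the mice are not given in the sources used here, nor is the number of follicles behind a library. A library measures granulosa, theca and oocyte RNA together, so fewer cells of a type and less RNA per cell cannot be told apart. The labels do not say which libraries came from separate cultures or animals, so the p-values measure only the spread between these libraries, which may be technical. Maturation values are TPM (transcript abundance scaled for gene length and to a fixed library total), and ovulation values are estimated read counts, shown as CPM (counts scaled to a fixed library total, with no length scaling). Ovulation libraries held between 10600931 and 19511531 counts. The tables were scaled apart, so levels were not compared between windows. A gene is called changed where its adjusted p, over every gene tested in its table, is under 0.05.

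Marker genes showed what the libraries held. All 6 granulosa markers (such as Foxl2 and Cyp19a1) were detected in every group, as were the theca markers. The summed oocyte markers (10 genes, such as Zp3 and Gdf9) lay between 146 and 219 TPM in maturation controls, and with PFNA their median was 1.75 TPM, with a range from 0.268 to 370.0 TPM. Oocyte markers were thus nearly absent from most PFNA-treated maturation libraries, the exceptions being PFNA replicates 1, 2 and 10, where they made up 0.0150%, 0.0133% and 0.037% of TPM. In the ovulation window the summed oocyte markers had a median of 99.8 CPM in controls (75.3 to 296) and 227 CPM with PFNA (8.14 to 449.9). The summed smooth muscle markers (5 genes, such as Acta2 and Tagln) had a median there of 55.6 CPM in controls, with a range from 23.4 to 137. With PFNA it was 367 CPM, with a range from 153 to 899. The granulosa marker sum, led there by Nr5a2 and Hsd17b1, was also higher with PFNA, with a median of 973 against 378 CPM. Of that list Foxl2 did not rise, with means of 41.2 CPM in controls and 36.1 CPM with PFNA. Theca markers summed to medians of 1995 CPM in controls and 1653 CPM with PFNA, endothelial markers to 91.9 and 155 CPM, and leukocyte markers to 26.0 and 54.9 CPM. Most of the theca sum was Hsd3b1, with means of 1834 CPM in controls and 1583 CPM with PFNA. Hhip was also lower with PFNA (25.9 to 9.22 CPM). The means of Cyp17a1 (39.0 to 81.8 CPM), Ptch1 (58.9 to 83.6 CPM) and Insl3 (15.5 to 19.9 CPM) were higher, so the sum does not speak for theca RNA as a whole. No marker found in the tables was at 0 in every library of a group. The part of these shifts in the results was not tested, except by the fits with the oocyte share as a covariate.

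Inhibin alpha and beta B transcripts were lower with PFNA during maturation. Inha and Inhbb fell, Amh fell on values that vary widely between libraries, and the activin receptor Acvr2a rose, while Inhba, Fst, Fstl3, Amhr2, Acvr1b and Acvr2b did not pass the test. Of the 10 genes, 4 were called by limma, 1 higher and 3 lower. Of the 13712 genes tested in this table, 29.4% were called, 13.3% higher and 16.1% lower, so the share among the 10 was near the background. No gene of the 10 had groups free of overlap, against 1.28% of all genes. Over all genes, 1824 were called higher and 2206 lower, and after scaling without nuclear genes that resemble mitochondrial sequence, which held a median of 20.7% of TPM in controls and 25.6% with PFNA, the split was 3073 to 1747. Adding the oocyte share to the fit as a covariate, limma called 0 of the 10, and 727 genes in all. At an unadjusted p under 0.05 were 4 of the 10, Inha, Inhba, Inhbb and Acvr2a, but not Amh. Of the 4 genes called without the covariate, Inha was then at -0.69 (limma adjusted p = 0.056, SE 0.21) and Inhbb at -2.12 (limma adjusted p = 0.12, SE 0.80). Acvr2a was at 0.31 (limma adjusted p = 0.15, SE 0.13) and Amh at -1.18 (limma adjusted p = 0.45, SE 0.89). Each had a larger SE than without the covariate. Oocyte share and PFNA treatment largely coincide in this window. The 6 granulosa markers summed there to a median of 4204 TPM with PFNA (1888 to 6049) against 5857 TPM in controls (4858 to 7159). Most of that sum was Hsd17b1, with means of 3006 TPM with PFNA and 4561 TPM in controls. Foxl2, Fshr, Cyp19a1 and Nr5a2 also had lower means with PFNA, while Esr2 was higher (26.9 against 20.9 TPM). Smooth muscle markers had a median of 80.0 TPM with PFNA (34.8 to 158) against 33.6 TPM in controls (9.31 to 96.0). Most of that sum was Acta2 and Tagln, whose means were higher with PFNA, as was that of Des. Myh11 (0.742 against 0.807 TPM) and Cnn1 (0.456 against 0.467 TPM), both low, were not higher. The part of these markers in the results was not tested.

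Inha (chr1:75507077-75510366, plus strand, GRCm38), the subunit that only inhibin contains, was the most abundant of the 10. Control libraries ranged from 26233 to 43694 TPM with a median of 34768, and PFNA libraries from 11169 to 32190 with a median of 21444. In 8 of 10 PFNA libraries it was below every control, and PFNA replicates 1 and 2 lay within the control range. The mean went from 34970 ± 4487 TPM (SD, n = 11) to 21742 ± 6382 (SD, n = 10), a log2 fold change (here log2 change) of -0.74 (limma adjusted p = 0.00063, SE 0.14) on the log2(TPM + 1) scale, which understates changes of low genes. The call held in each of the 21 fits that left out 1 library.

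Inhbb (chr1:119415465-119422248, minus strand), the beta subunit of inhibin B and activin B, fell in this window. Control libraries ranged from 6576 to 10799 TPM with a median of 9571. PFNA libraries ranged from 203 to 9868 TPM with a median of 2327. Of the 10 PFNA libraries, 8 lay below every control, and replicates 1 and 2, at 9868 and 8040 TPM, did not. Replicates 7 and 10 were the lowest, at 209 and 203 TPM. The log2 change was -2.39 (limma adjusted p = 0.0026, SE 0.55), a 5.23-fold lower level, and -2.98 without PFNA replicates 1 and 2. These were the highest of the PFNA group, so leaving them out was bound to enlarge the fall and is no added support. Oocyte markers were kept in those 2 libraries and in replicate 10, which had the lowest Inhbb, Inha, Inhba, Fst and Fstl3 values of its group. What sets these libraries apart was not tested.

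Inhba (chr13:16011851-16031621, plus strand), the beta subunit of inhibin A and activin A, ranged from 2519 to 5013 TPM in controls, with a median of 3641, and from 1519 to 4241 TPM with PFNA, with a median of 2998. The groups overlapped, with 3 of 10 PFNA libraries below every control. The log2 change was -0.31 (limma adjusted p = 0.16, SE 0.16), and -0.69 under the oocyte covariate (limma adjusted p = 0.056, SE 0.21).

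Fst (chr13:114452290-114458951, minus strand), the activin-binding protein follistatin, ranged from 1639 to 3317 TPM in controls, with a median of 2137, and from 514 to 2910 TPM with PFNA, with a median of 1710. Its log2 change of -0.58 (SE 0.23) did not pass the test (limma adjusted p = 0.065). Without PFNA replicates 1 and 2 it was -0.78 (limma adjusted p = 0.0092), and leaving out either of these alone also brought it past the threshold. Both lay within the control range and were the highest of the PFNA group, at 2338 and 2910 TPM. Leaving them out was bound to enlarge the change, so this is no added support.

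**Figure D1:**
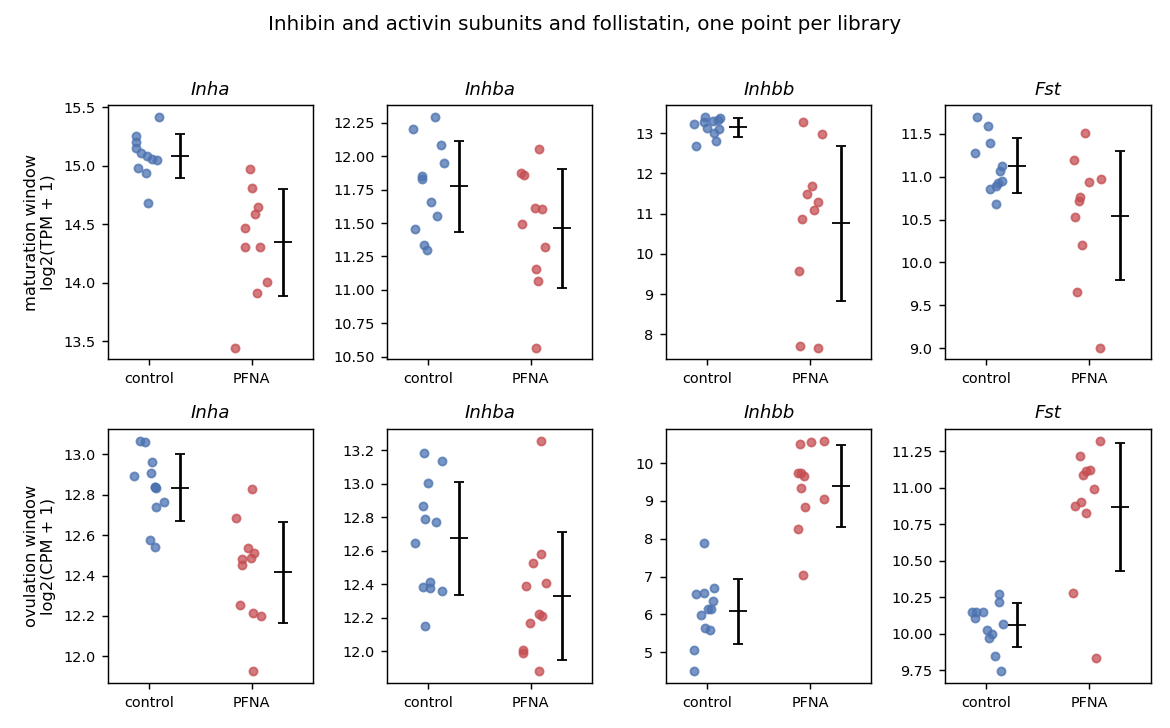
Inha, Inhba, Inhbb and Fst in every library, as log2(TPM + 1) in the maturation window (top) and log2(CPM + 1) in the ovulation window (bottom). Points are libraries and bars show the mean and SD of each group; each panel has its own axis, which does not start at 0. The PFNA points for Inhbb lie mostly below the controls in the top row and above them in the bottom row, with replicates 1 and 2 (9868 and 8040 TPM) as the pair of high points at the top.

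With PFNA during ovulation there was more Inhbb, follistatin and AMH receptor transcript, and less Inha, Fstl3 and activin receptor transcript, than hCG alone. All 10 genes were called by edgeR's quasi-likelihood test, 4 higher and 6 lower. The background in this table was 73.2% of 13441 genes, 38.0% higher and 35.2% lower, so a call by itself sets a gene little apart. Amhr2 and Acvr1b were the 2 genes whose groups did not overlap, as was so for 26.0% of all genes.

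Inha was lower in hCG-treated follicles with PFNA as well. Controls ranged from 5957 to 8583 CPM with a median of 7330, and PFNA libraries from 3890 to 7264 with a median of 5725. In 9 of 11 PFNA libraries it was below every control. The log2 change was -0.41 (edgeR adjusted p = 0.00032, SE 0.09), a 1.33-fold lower level.

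Inhba ranged from 4547 to 9290 CPM in controls, with a median of 6710, and from 3769 to 9783 CPM with PFNA, with a median of 4779. The groups overlapped, with 3 PFNA libraries below every control and 1, replicate 6, above every control. The log2 change of -0.33 (SE 0.15) passed the threshold narrowly (edgeR adjusted p = 0.047). Of 23 fits that left out 1 library, 9 kept the call and 14 lost it, with log2 changes between -0.46 and -0.28 (these 14 left out control replicate 1, 3, 4, 5, 7 or 8, or PFNA replicate 1, 2, 3, 4, 7, 8, 9 or 10). Median-ratio size factors (edgeR adjusted p = 0.064) and the oocyte covariate (edgeR adjusted p = 0.14) ended it too.

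Inhbb was low in hCG-treated controls and higher with PFNA. Controls ranged from 21.6 to 234 CPM with a median of 69.7, and PFNA libraries from 130 to 1539 CPM with a median of 810. In 10 of 11 PFNA libraries it was above every control, and replicate 6, at 130 CPM, was not. The mean went from a control mean of 79.5 ± 54.7 CPM (SD, n = 12) to 823 ± 486 CPM with PFNA (SD, n = 11), a log2 change of 3.37 (edgeR adjusted p = 3.7e-08, SE 0.39) or 10.3-fold, and leaving out any 1 library gave 3.24 to 3.65. The fit with the oocyte covariate gave 3.01.

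Fst rose with PFNA in this window. Controls ranged from 855 to 1238 CPM with a median of 1088, and PFNA libraries from 912 to 2557 CPM with a median of 2033. In 10 of 11 PFNA libraries it was above every control, the exception being replicate 10. Its log2 change was 0.86 (edgeR adjusted p = 6.9e-07, SE 0.12), a 1.81-fold higher level.

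Fstl3 (chr10:79777272-79782630, plus strand), the other activin-binding protein of the set, fell. Controls ranged from 13.2 to 23.0 CPM with a median of 17.3, and PFNA libraries from 4.27 to 27.3 CPM with a median of 8.20. In 9 of 11 PFNA libraries it was below every control, and replicate 5, at 27.3 CPM, was above every control. This gave a log2 change of -0.82 (edgeR adjusted p = 0.0026, SE 0.23). In the maturation window Fstl3 was low in both groups, at 5.74 ± 2.89 TPM (SD, n = 11) and 6.02 ± 1.86 TPM (SD, n = 10), with a log2 change of 0.11 (limma adjusted p = 0.73, SE 0.20).

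AMH itself was scarce. In the maturation window Amh (chr10:80805243-80807648, plus strand) ranged from 1.78 to 105 TPM in controls, with a median of 11.2, and from 0 (replicate 8) to 27.3 TPM with PFNA, with a median of 1.53. Of the 10 PFNA libraries, 5 lay below every control, and 3 controls lay above every PFNA library. The fitted log2 change came to -1.81 (limma adjusted p = 0.033, SE 0.63), and 8 of the 21 fits that left out 1 library lost the call, those without control replicate 8, 9, 10 or 12 or PFNA replicate 4, 5, 6 or 8. Without control replicate 10, the library at 105 TPM, the log2 change was -1.51 (limma adjusted p = 0.055), and without PFNA replicates 1 and 2 it was -1.63 (limma adjusted p = 0.069).

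After hCG, Amh ranged from 0.149 to 3.87 CPM in controls, with a median of 0.787, and from 0 to 76.5 CPM with PFNA, with a median of 2.73. The mean of the PFNA libraries rests on replicates 10 and 2, at 76.5 and 20.7 CPM, and replicate 3 had 0 counts, which allows up to 0.148 CPM (3 counts, counting error only). Of the 11 PFNA libraries, 3 lay above every control and 2 below. The fitted log2 change was 3.15 (edgeR adjusted p = 0.0025, SE 0.88). Without PFNA replicate 10 it was 1.69 (edgeR adjusted p = 0.038), DESeq2 gave 1.62 (adjusted p = 0.019), and limma on log2(CPM + 1) gave 1.04 and no call (adjusted p = 0.088). The oocyte covariate also ended the edgeR call (log2 change 0.91, adjusted p = 0.47).

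Amhr2 (chr15:102445367-102454633, plus strand), the receptor through which AMH acts, separated the groups of the ovulation window. Controls ranged from 9.61 to 19.6 CPM with a median of 13.7, and PFNA libraries from 43.8 to 88.3 CPM with a median of 62.5. Each of the 11 PFNA libraries lay above each of the 12 controls. PFNA against control gave a log2 change of 2.21 (edgeR adjusted p = 1.9e-14, SE 0.12), a 4.63-fold higher level, and leaving out any 1 library gave 2.16 to 2.27. In the maturation window Amhr2 was at 144 ± 11.4 TPM (SD, n = 11) in controls and 152 ± 31.9 TPM (SD, n = 10) with PFNA, with a log2 change of 0.06 (limma adjusted p = 0.61, SE 0.09). PFNA replicate 8 stood highest there, at 234 TPM.

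Promoters are shown for 3 of the genes, since Amhr2 and Inhbb rose in the ovulation window, with 11 and 10 of 11 PFNA libraries above every control, and Inhba, the other beta subunit, did not rise. RefSeq (GRCm38.p6) promoters, each 300 bases long and reaching from upstream of the annotated start to just past it, were matched for 8 of the 10 genes, of which the Inha window begins inside the gene. Each reads 5′ to 3′ on the gene's own strand, at chr15:102445117-102445416 (plus) for Amhr2, chr1:119422199-119422498 (minus) for Inhbb and chr13:16011601-16011900 (plus) for Inhba. Capitals mark a motif match.

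Amhr2: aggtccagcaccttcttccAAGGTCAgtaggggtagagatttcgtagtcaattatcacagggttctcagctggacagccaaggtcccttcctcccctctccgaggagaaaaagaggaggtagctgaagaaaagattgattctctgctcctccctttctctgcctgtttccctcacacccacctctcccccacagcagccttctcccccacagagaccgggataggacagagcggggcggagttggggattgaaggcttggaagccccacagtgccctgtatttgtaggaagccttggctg

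Inhbb: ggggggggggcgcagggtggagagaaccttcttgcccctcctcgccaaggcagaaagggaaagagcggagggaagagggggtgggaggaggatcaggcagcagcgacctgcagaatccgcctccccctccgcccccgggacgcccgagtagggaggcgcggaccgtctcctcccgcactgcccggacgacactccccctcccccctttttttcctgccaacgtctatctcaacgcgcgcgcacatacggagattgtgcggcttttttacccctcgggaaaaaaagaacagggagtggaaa

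Inhba: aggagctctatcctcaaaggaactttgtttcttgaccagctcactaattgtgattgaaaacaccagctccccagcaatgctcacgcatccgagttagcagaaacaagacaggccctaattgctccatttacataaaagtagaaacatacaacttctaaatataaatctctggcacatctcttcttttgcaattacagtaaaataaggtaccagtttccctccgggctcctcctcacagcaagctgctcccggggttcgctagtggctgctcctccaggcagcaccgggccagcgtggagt

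The 5 motifs searched, on both strands, were TGACGTCA (the cAMP response element), TGCGTCA (a variant of it), AAGGTCA (the half-site of NR5A receptors), AGATAA, read by the zinc-finger factors Gata4 and Gata6, and TGANTCA, the AP-1 element. No motif contains another. They were present in 1.79%, 2.12%, 4.72%, 11.2% and 7.81% of all 32851 promoters of this length. The 1 match among the 8 genes was AAGGTCA in Amhr2, 231 bases before the RefSeq start. The ovulation table starts Amhr2 at position 102445002, upstream of the whole window, so by that annotation the window lies inside the gene. The Inhbb and Inhba windows held none of the 5, which says only that these letters are not in these windows. By composition the windows differed, with 64.3% G or C in Inhbb, 55.3% in Amhr2 and 47.7% in Inhba.

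Acvr1b (chr15:101174067-101213684, plus strand), the type I activin receptor, fell in the ovulation window: controls ranged from 22.5 to 36.2 CPM with a median of 26.4, and PFNA libraries from 7.39 to 17.3 CPM with a median of 14.1. Every PFNA library lay below every control. Its log2 change was -1.08 (edgeR adjusted p = 1.1e-07, SE 0.14), a 2.12-fold lower level. During maturation its groups overlapped, at 4.98 ± 0.62 TPM (SD, n = 11) and 4.83 ± 0.80 TPM (SD, n = 10), with a log2 change of -0.04 (limma adjusted p = 0.74, SE 0.08).

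Acvr2a (chr2:48814109-48903269, plus strand), a type II receptor for activin, rose during maturation, from a control range of 3.19 to 4.84 TPM (median 4.06) to 4.06 to 6.94 TPM (median 5.66). In 8 of 10 PFNA libraries it was above every control. This gave a log2 change of 0.38 (limma adjusted p = 0.0026, SE 0.09), or 1.30-fold. In the ovulation window it fell, from 45.8 to 66.4 CPM (median 51.6) in controls to 35.5 to 52.8 CPM (median 40.8) with PFNA, and 10 of 11 PFNA libraries were below every control. That log2 change was -0.33 (edgeR adjusted p = 0.00016, SE 0.07).

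Acvr2b (chr9:119402118-119434995, plus strand), the other type II receptor, ranged from 0.694 to 2.11 TPM in maturation controls (median 1.43) and from 1.41 to 2.83 TPM with PFNA (median 1.76). Its log2 change of 0.24 (SE 0.12) did not pass the test (limma adjusted p = 0.12), though it did after scaling without the mitochondrial-like genes (0.33, limma adjusted p = 0.046). After hCG it fell from 31.5 to 45.5 CPM (median 38.9) to 15.7 to 34.1 CPM (median 27.5), and 8 of 11 PFNA libraries were below all controls. The fitted log2 change came to -0.56 (edgeR adjusted p = 5.3e-05, SE 0.11). Inhba, Fst, Fstl3, Acvr2a and Acvr2b each overlap an annotated gene on the opposite strand, and the sources used here do not say whether strand was used in counting, so reads of such partners cannot be told apart.

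**Figure D2:**
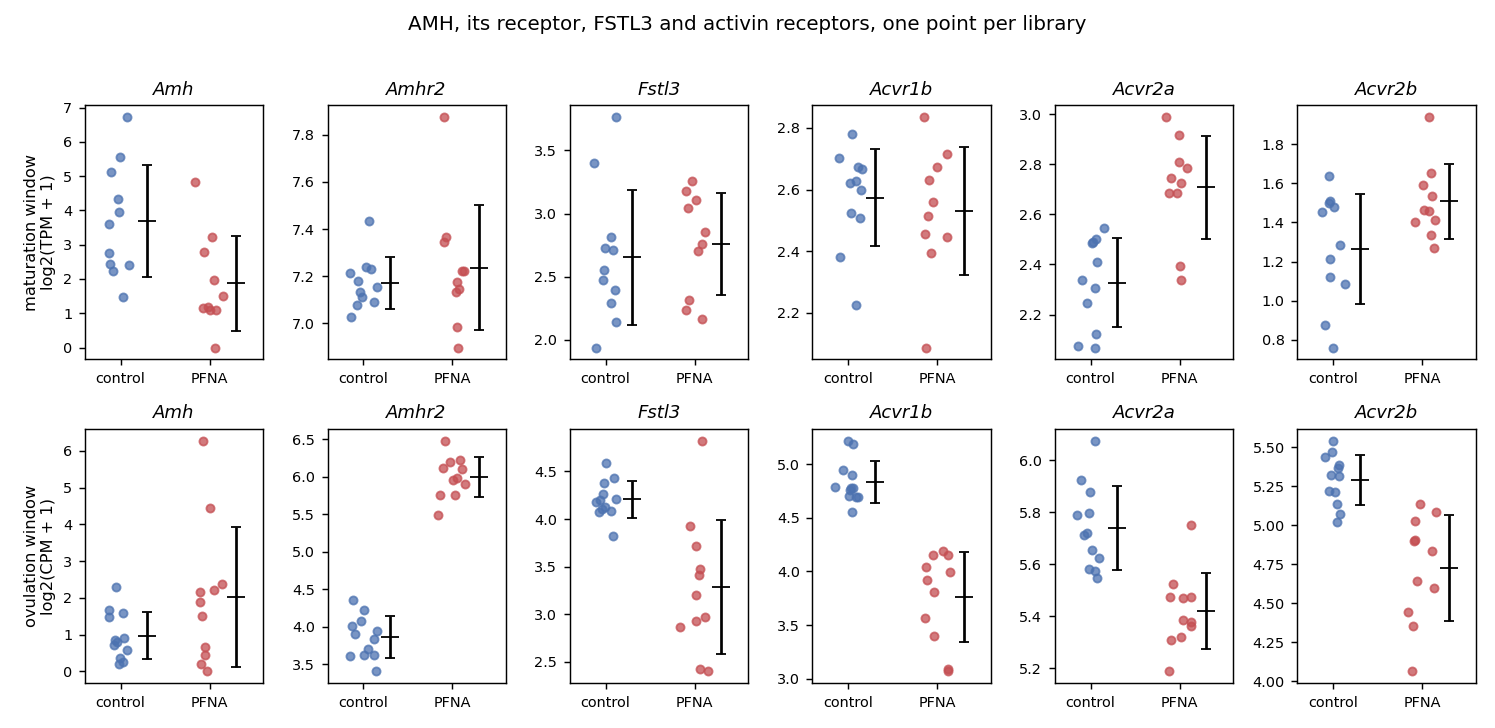
Amh, Amhr2, Fstl3, Acvr1b, Acvr2a and Acvr2b in every library, as log2(TPM + 1) in the maturation window (top) and log2(CPM + 1) in the ovulation window (bottom), with group mean and SD beside the points; each panel has its own axis. In the bottom row the Amhr2 and Acvr1b points of the 2 groups do not overlap, and the Amh points spread from 0 to 76.5 CPM with PFNA.

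The effect of PFNA differed between the windows for 8 of the 10 genes, in a test of the ovulation effect minus the maturation effect with limma in each table. Among the 11214 genes tested in both, 67.7% differed, 32.0% higher and 35.6% lower, so this share too was near the background. Inhbb differed by 5.69 on the log2 scale (limma adjusted p = 1.8e-09, SE 0.67), having fallen in maturation and risen in ovulation. The differences of Amh (2.85, SE 0.83), Amhr2 (2.07, SE 0.14) and Fst (1.40, SE 0.27) were also positive. Not each of these genes was called in both windows. Amhr2 was near 0 in maturation (0.06) and the fall of Fst there was not called. The ovulation effect of Amh in the limma fit used here was 1.04 and not called. Fstl3 and Acvr1b (both -1.03), Acvr2b (-0.81) and Acvr2a (-0.70) had negative differences. Inha and Inhba, with differences of 0.32 (limma adjusted p = 0.096, SE 0.17) and -0.03 (limma adjusted p = 0.91, SE 0.22), were not called. When both windows carried the oocyte covariate, 6 of the 10 differed, as did 6636 of all 11214 genes, so this share was near the background as well. Amh (1.78, limma adjusted p = 0.14) and Fstl3 (-0.54, limma adjusted p = 0.14) then did not differ.

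**Figure D3:**
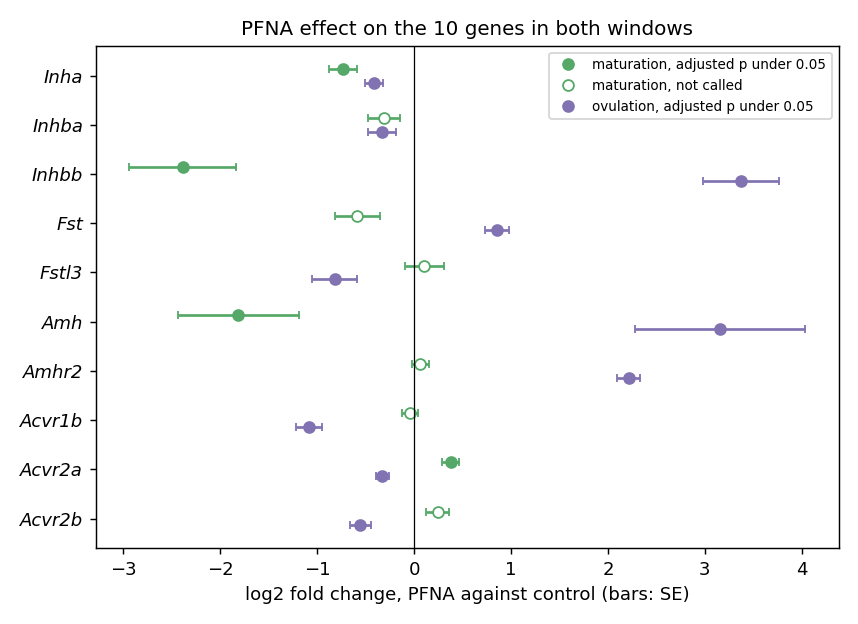
Log2 change of each gene, PFNA against control, with its SE, in the maturation window (limma on log2(TPM + 1)) and the ovulation window (edgeR on counts). Filled points passed an adjusted p under 0.05 and open ones did not. Inhbb is at -2.39 in maturation and 3.37 in ovulation, and Inha is below 0 in both.

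Ratios taken within a library hardly depend on how the library was scaled, and 8 of them were tested by permutation (100000 resamples, two-sided, adjusted over the 8). In maturation controls there was more beta B than beta A transcript per length, with Inhba at 0.263 to 0.61 of Inhbb. With PFNA this ratio ranged from 0.231 to 10.2, with a median of 1.62, and 8 of 10 libraries lay above every control. The log2 difference was 2.07 (adjusted permutation p = 0.0015). Inhbb relative to Inha differed by -1.65 (adjusted permutation p = 0.0015), so beta B transcript fell further than alpha.

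In the ovulation window Inhbb relative to Inha was higher with PFNA by 3.72 on the log2 scale (adjusted permutation p = 8e-05). Each of the 11 PFNA libraries lay above every control. The ratio of Inhba to Inhbb was lower, by a log2 difference of -3.64 (adjusted permutation p = 0.00016), and 10 of 11 PFNA libraries were below all controls. Fst relative to Inhba, the binding protein against the activin A subunit, was higher by 1.15 (adjusted permutation p = 8e-05), in 10 of 11 PFNA libraries above every control. For Inhbb/Inha and Fst/Inhba the unadjusted permutation p of 2e-05 is the smallest these resamples can give.

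The ratio of Inhba to Inha did not pass the test in either window. In maturation it differed by 0.42 (adjusted permutation p = 0.053), and in ovulation by 0.08 (adjusted permutation p = 0.72). Fst relative to Inhba in maturation differed by -0.27 (adjusted permutation p = 0.24). Both maturation ratios moved past the threshold without PFNA replicates 1 and 2, to 0.62 (adjusted permutation p = 0.0021) and -0.53 (adjusted permutation p = 0.0034). These 2 libraries lay within the control range for Inha, Inhbb and Fst. Leaving them out tends to widen such differences, so the passed threshold is no added support.

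**Figure D4:**
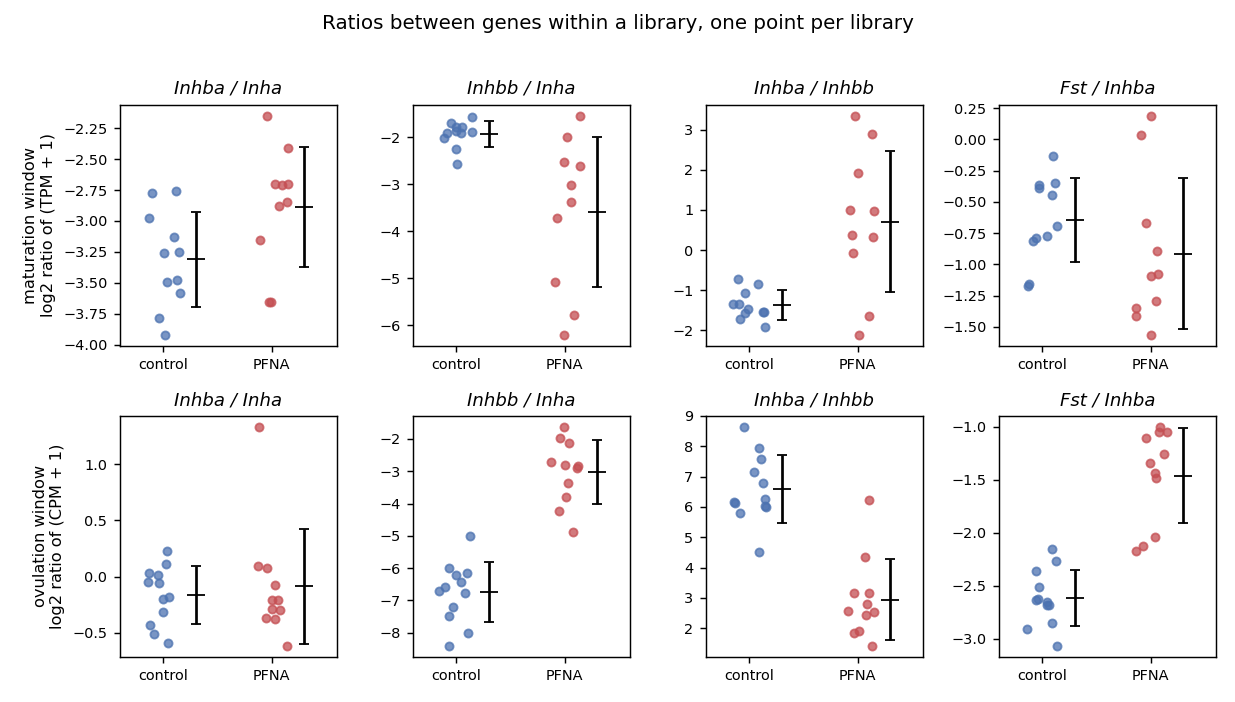
Log2 ratios between genes of the set within each library, from TPM + 1 in the maturation window (top) and CPM + 1 in the ovulation window (bottom); points are libraries, bars the group mean and SD, and each panel has its own axis. Inhba/Inhbb is higher with PFNA in the top row (difference 2.07) and lower in the bottom row (-3.64).

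By level per length, the order in maturation controls was Inha, Inhbb, Inhba, Fst, Amhr2, Amh, Fstl3, Acvr1b, Acvr2a and Acvr2b. The ranges of neighbours overlapped between Inhba and Fst and from Amh through Acvr2a, and were separate elsewhere. With PFNA the order of the first 5 was the same by mean, with Inhbb at 3177 TPM and Inhba at 2933. By median Inhba (2998 TPM) stood above Inhbb (2327 TPM), and their ranges overlapped. Counts of the ovulation window were divided by transcript length for the same purpose, and scaled to the same total in each library. There the control order began with Inha at 14120, Inhba at 2949, Fst at 1071 and Inhbb at 54.4, with no overlap among the first 4. With PFNA Inhbb had a mean of 586 on that scale and Amhr2, at 98.2, moved from the eighth place to the fifth. The Inhba value assumes its longer annotated transcript of 6390 bases, where a shorter one of 1529 also exists.

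Single libraries stood out across several genes, as seen only after their values were known. In the ovulation window PFNA replicate 6 had the highest Inhba (9783 CPM) and the lowest Inha (3890), Inhbb (130), Amhr2 (43.8) and Acvr1b (7.39) of its group, and also the highest level of the luteinizing hormone receptor Lhcgr, at 779 CPM. Replicate 10 of the same group had the highest Inhbb (1539 CPM), Amh (76.5) and Amhr2 (88.3) and the lowest Fst (912), with Lhcgr at 48.9 CPM. Without replicate 6 the Inhba log2 change was -0.46 (edgeR adjusted p = 0.0019). Replicate 6 had the highest Inhba of its group, so leaving it out was bound to enlarge the fall and is no added support.

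Relations between the genes across libraries of 1 group were also tested, 12 in all, and none passed adjustment. The closest were in the 12 ovulation controls, where Inhba followed Inha (Pearson r = 0.68, permutation p = 0.015, adjusted 0.13, and Spearman rho = 0.74, permutation p = 0.0079, adjusted 0.067) and Fst followed Inhba (Pearson r = 0.65, permutation p = 0.021, adjusted 0.13, and Spearman rho = 0.72, permutation p = 0.011, adjusted 0.067). Without the 2 libraries farthest from the median these r were 0.62 and 0.60. With PFNA in the same window Inha and Inhba had r = -0.29 over 11 libraries (permutation p = 0.38, adjusted 0.51; Spearman rho = 0.04, permutation p = 0.92, adjusted 0.92), and 0.70 without replicates 3 and 6, so the value rests on those libraries.

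The genes whose library-to-library pattern was most like that of Inha, Inhba and Amh, after group means were removed, are given as a description. In the maturation window (21 libraries, 6629 genes ranked) they were Hsd17b1 (r = 0.92), Csrp2, Arf5, Fam222a and Fdps for Inha, Stard4 (0.86), P4ha1, Dcaf11 and G6pdx for Inhba, and Pusl1 (0.79), Arpc1b, Tmbim1, Ywhah and Tcim for Amh. In the ovulation window (23 libraries, 8969 genes ranked for Inha and Inhba, 8970 for Amh) they were Uqcrfs1 (0.80), Mlf2, Retreg2, Ppp1r18 and Usf2 for Inha, Arl6ip6 (0.90), Inpp1, Odc1, Kdelr2 and Zeb2 for Inhba, and Ddit4 (0.85), Snx33, Cd320, Ptcd1 and Kdm4a for Amh. Hsd17b1 makes estradiol in granulosa cells. Values in a library share its depth and cell makeup.

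The rest of the pathway was followed through 8 lists of 66 genes. In maturation 22 of 56 tested were called by limma (39.3%, against 29.4% of all genes), 15 higher and 7 lower, with a median log2 change of 0.17 against 0.02 over all genes. In ovulation 53 of 60 tested were called by edgeR (88.3%, against 73.2%), 18 higher and 35 lower, with a median of -0.38 against 0.04. The oocyte covariate brought the maturation count to 7 and the ovulation count to 50. Over all genes it brought the calls from 4030 to 727 in maturation and from 9837 to 9522 in ovulation. Without PFNA replicates 1 and 2 the maturation count was 31. Over all genes that last fit called 5201, against 4030 with every library. In each list and direction the gene with the smallest p is given with its value, except among the binding proteins, which are given in part. Other names were added after their values were seen.

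Among 7 other ligands tested in maturation, 1 rose, Bmp2 (log2 change 1.66, limma adjusted p = 1e-05, SE 0.21), and 3 fell, Gdf9 (-3.31, limma adjusted p = 0.0011, SE 0.69), Bmp15 and Tgfb3. Gdf9 and Bmp15 are oocyte factors that act on granulosa cells and belong to the oocyte markers above. Under the oocyte covariate the Gdf9 value was -0.19 (limma adjusted p = 0.71). That covariate includes Gdf9 itself, so this value cannot show whether Gdf9 fell apart from the oocyte share. In ovulation 5 of 10 rose, led by Tgfb2 (0.84, edgeR adjusted p = 1.4e-05, SE 0.15) with Bmp2, Gdf9, Bmp15 and Tgfb3, and 4 fell, led by Bmp6 (-2.78, edgeR adjusted p = 2.1e-13, SE 0.16) with Gdf11, Tgfb1 and Bmp7. Bmp6 went from a control mean of 224 ± 55.2 CPM (SD, n = 12) to 32.7 ± 9.24 CPM with PFNA (SD, n = 11). The summed oocyte markers, which include Gdf9 and Bmp15, also had a higher median with PFNA in ovulation (227 against 99.8 CPM).

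Tgfbr3, betaglycan, the co-receptor that lets inhibin hold type II receptors, rose in both windows, by 0.68 in maturation (limma adjusted p = 0.0058, SE 0.17) and by 1.72 in ovulation (edgeR adjusted p = 9.2e-12, SE 0.13). Its level in ovulation went from a control mean of 28.1 ± 5.01 CPM (SD, n = 12) to 92.4 ± 22.0 CPM with PFNA (SD, n = 11). The maturation call was lost under the oocyte covariate (0.45, limma adjusted p = 0.28). Of the other receptors tested, 2 of 9 rose in maturation (Tgfbr3 and Tgfbr1) and none fell. In ovulation 6 of 10 rose and 4 fell, those being Bmpr1a, a type I receptor for BMP ligands and AMH (-0.78, edgeR adjusted p = 4.5e-10, SE 0.07), Acvr1, Acvr1c and Tgfbr2.

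Among the other binding proteins, Grem1, a secreted BMP antagonist, fell in both windows, by -1.75 in maturation (limma adjusted p = 0.0042, SE 0.43) and by -1.35 in ovulation (edgeR adjusted p = 6.3e-07, SE 0.19). Tdgf1 also fell in maturation, at a low level, from a control mean of 2.13 TPM to 0.637 TPM with PFNA. In ovulation Chrdl1 (control mean 3.22 CPM, PFNA mean 7.97) and Chrd (0.610 and 1.10 CPM) rose, both at low levels. Bambi fell there, from 35.8 to 25.1 CPM.

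The SMAD proteins carry the signal to the nucleus, and Smad6 and Smad7 are the inhibitory ones. In maturation 4 of 8 rose and none fell: Smad7 (1.08, limma adjusted p = 3.1e-05, SE 0.15), Smad6, Smad9 and Smad3. In ovulation 7 of 8 fell, led by Smad7 (-2.02, edgeR adjusted p = 5e-11, SE 0.16), and 1 rose, Smad4 (0.17, edgeR adjusted p = 0.0042, SE 0.05). Of the SMAD co-repressors and ubiquitin ligases, 2 of 6 rose in maturation, Smurf2 (0.25, limma adjusted p = 0.024, SE 0.08) and Smurf1, and 6 of 6 fell in ovulation, led by Trim33 (-0.60, edgeR adjusted p = 1.1e-09, SE 0.06).

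Proprotein convertases cut the precursors of inhibin, activin and AMH into mature forms. Furin rose in maturation (0.39, limma adjusted p = 0.017, SE 0.12), the 1 call among 4 tested. In ovulation all 4 of the list (Furin, Pcsk5, Pcsk6 and Pcsk7) fell, with a median log2 change of -1.98. Furin went from a control mean of 362 ± 54.7 CPM (SD, n = 12) to 95.7 ± 17.6 CPM with PFNA (SD, n = 11), a log2 change of -1.92 (edgeR adjusted p = 1.1e-14, SE 0.10).

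The Id genes are transcriptional targets of BMP and AMH signalling. Id2 rose in maturation (0.89, limma adjusted p = 7.5e-05, SE 0.14), the 1 call among 4 tested. All 4 Id genes fell in ovulation, with a median of -2.14. There Id2 went from a control mean of 231 ± 50.8 CPM (SD, n = 12) to 21.4 ± 8.92 CPM with PFNA (SD, n = 11), a log2 change of -3.43 (edgeR adjusted p = 5.4e-13, SE 0.21).

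The list of transcription factors held 11 possible regulators of these genes. In maturation 4 rose, Nr0b1 (1.41, limma adjusted p = 0.00066, SE 0.28), Creb1, Sox9 and Esr2, and 1 fell, Nr5a2 (-0.51, limma adjusted p = 0.00074, SE 0.10). In ovulation 3 rose, Esr2 (1.29, edgeR adjusted p = 4.9e-09, SE 0.14), Nr5a2 and Gata4, and 4 fell, Crem (-1.70, edgeR adjusted p = 1.2e-07, SE 0.21), Creb1, Nr5a1 and Gata6. Esr2 and Nr5a2 are also among the granulosa markers given above.

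**Figure D5:**
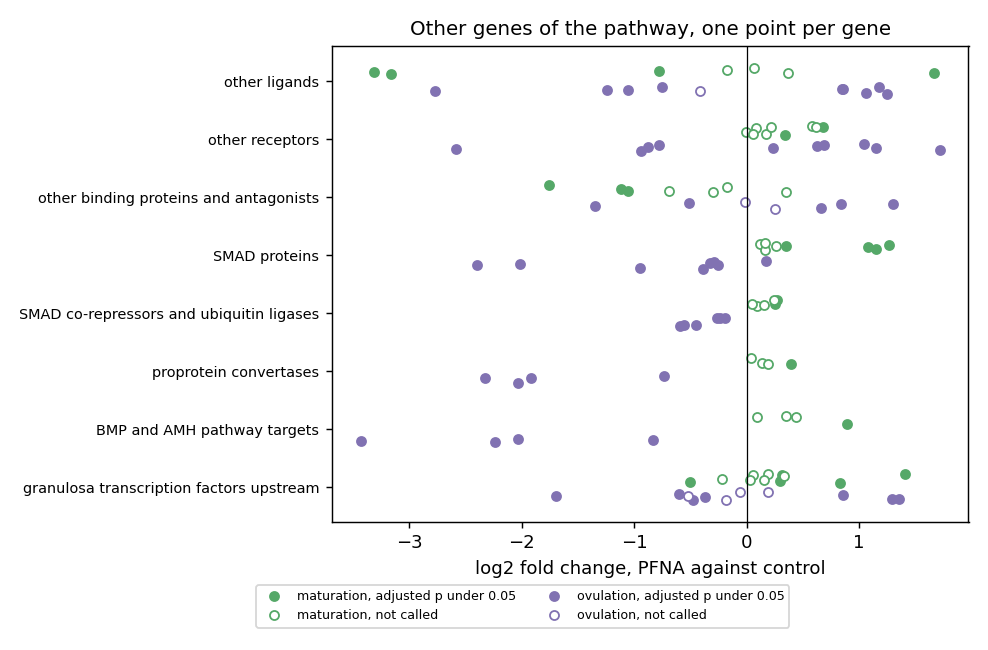
Log2 change, PFNA against control, of the other pathway genes, one point per gene, by list, in the maturation window (limma) and the ovulation window (edgeR). Filled points passed an adjusted p under 0.05. The 4 convertases and the 4 Id genes all lie below 0 in the ovulation window, with medians of -1.98 and -2.14.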

How the data were processed

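RNA from mouse ovarian follicles was sequenced after poly-A selection, per the labels' protocols, and Partek, HISAT2 and Bowtie2 are named in the submitters' processing notes, without versions. The file of the maturation window calls its values raw counts, yet they are TPM: the authors' deposited values sum to between 999999.8 and 1000000.2 per library, and 80.2% are over 0.01 from a whole number. Its log2(TPM + 1) values went into limma 3.58.1 (trend and robust options, mean of at least 1 TPM). The ovulation table holds the authors' deposited estimated counts, of which 9.82% are over 0.01 from a whole number. These were rounded and tested with edgeR 4.0.16 (filterByExpr, TMM, quasi-likelihood). Window differences were taken from limma fits, on log2(TMM CPM + 1) for ovulation. P-values were Benjamini-Hochberg adjusted over all genes. DESeq2 1.42.0 was an alternative, and fits were tested on simulated data. No pair of ovulation libraries of a group agreed within sampling noise. This could not be tested for maturation, whose values keep no depth.

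A maturation column spelled with another middle letter than the titles was taken as control replicate 6. Control replicate 4 of that window was not analysed here. Positions are GRCm38, 1-based. Members and lists were chosen with earlier results of these data known. All 10 genes are named whatever their result, with the smallest p in each list and direction and the 5 genes most like Inha, Inhba and Amh. A few genes that this rule names are not reported here.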

Additional observations from a re-analysis of the deposited data

Results flagged for a closer look

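Among 15 quantities searched for a library apart from the other 9 of the maturation PFNA group, 4 were found, where chance gives about 1 in 20. Amh was at 27.3 TPM in replicate 10, with the next library at 8.36 TPM. Amhr2 was at 234 TPM in replicate 8, with the next at 164 TPM. Acvr2b was at 2.83 TPM in replicate 7, with the next at 2.15 TPM. Oocyte markers made up 0.037% of TPM in replicate 10, with the next library at 0.0150%.

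The PFNA effect differed between windows for 8 genes, by limma with adjustment over all genes, as ovulation minus maturation on the log2 scale. Over all genes tested in both windows, 67.7% of 11214 differed, so such a difference by itself sets a gene little apart. Inhbb differed by 5.69, Amh by 2.85, Amhr2 by 2.07 and Fst by 1.40. Fstl3 differed by -1.03, Acvr1b by -1.03, Acvr2b by -0.81 and Acvr2a by -0.70. In the 2 windows the tables differ in unit, scaling and control treatment, and the part of this in the differences was not tested.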

How the results depend on the processing

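With the oocyte share as a covariate, limma called 0 of the 10 genes in maturation, against 4 without it, and 727 of 13712 genes in all. At an unadjusted p under 0.05 were 4, Inha, Inhba, Inhbb and Acvr2a. Of the genes called without the covariate, Inha was then at -0.69, Inhbb at -2.12, Acvr2a at 0.31 and Amh at -1.18, with larger SEs. The share largely follows treatment there, and the cause was not tested. Without maturation PFNA replicates 1 and 2 the log2 ratio difference was 0.62 for Inhba/Inha and -0.53 for Fst/Inhba, both then past the threshold. These 2 libraries lay within the control range for Inha, Inhbb and Fst, so this is no added support. Leaving out single libraries gave 3 to 5 called genes in maturation and 9 to 10 in ovulation. Over all genes these fits called 3586 to 4588 and 9654 to 10029. Among the values of single genes under these alternatives, 269 of maturation stayed on their side of the threshold, 14 lost and 4 gained a call; in ovulation 270 stayed and 20 lost it, and none changed direction while called. A replicate block left 4 called in maturation and 8 in ovulation, where Inhba (edgeR adjusted p = 0.065) and Amh (edgeR adjusted p = 0.14) lost the call. Over all genes the block called 2895 of 13712 in maturation, against 4030 without it, and 9333 of 13441 in ovulation, against 9837. Same-numbered libraries correlated at -0.14 to 0.17 in maturation and -0.19 to 0.07 in ovulation, so the numbers were not treated as pairs. In the pathway lists the block gave 14 calls in maturation, against 22. The maturation table keeps no depth, so its low values, such as Amh, have unknown counting error.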
